A study of Mus musculus with 3 samples.

Results

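The genes described are those of 4 families of secreted developmental signals, the Wnt, BMP, TGF-beta and hedgehog pathways, in neural retina of Rp1-/- mice, which lack a photoreceptor protein that binds microtubules. Members were taken by gene symbol: every probe set with 1 symbol in the platform annotation that begins with the name of a Wnt, Frizzled, BMP, GDF, TGF-beta, activin or inhibin, Smad, Patched or Gli gene, or of a named partner, with Dkk3 left out. This gave 119 of 12422 gene probe sets, which stand for 96 genes. The rule uses symbols and no measured value. The study hybridised RNA of 3 pools of retinas to 3 Affymetrix U74Av2 arrays, on which each transcript is read by 1 or more sets of short probes. All 3 pools were Rp1-/-, on a mixed 129/SvEv and C57BL/6 background, aged 10 postnatal days, with 3 to 4 mice in each pool and retinas taken between 1 and 2 pm. No array of another genotype was analysed here, so the comparisons are between pools of 1 group and say nothing of the loss of Rp1. The labels number no pools and do not say whether pools shared animals, so the spread covers these RNA samples only, and the numbers 1 to 3 are names. The title of pool 1 lacks the rp1 tag found in the others, while its description gives the same genotype.

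Wnt proteins bind Frizzled receptors and the co-receptors Lrp5 and Lrp6, which stops a complex of Axin, Apc and Gsk3 kinases from marking beta-catenin for destruction, and beta-catenin then acts with Tcf and Lef factors on target genes. BMPs, GDFs, activins and TGF-betas bind pairs of serine/threonine kinase receptors that phosphorylate Smads, which carry the signal to the nucleus, while Smad6 and Smad7 oppose it. Hedgehog ligands bind Ptch1 and so release Smo, which sets the activity of the Gli factors. In the eye these pathways pattern the optic cup and its margin, and they act on progenitors, ganglion cell axons and vessels.

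Promoters are shown for 3 members, because Axin2 and Ptch1 are the textbook feedback targets of the Wnt and hedgehog pathways and Gsk3a is a kinase of the beta-catenin destruction complex. Each is the 250 bases before the RefSeq start site (GRCm38.p6), read 5′ to 3′ on the gene's strand, at chr7:25237852-25238101 (minus strand) for Gsk3a, chr11:108920099-108920348 (plus strand) for Axin2 and chr13:63565736-63565985 (minus strand) for Ptch1. Capitals mark a match, on either strand, to 1 of 4 motifs: CTTTGA (the Tcf and Lef core), GGCGCC (a BMP-responsive Smad element), GTCTAGAC (the Smad palindrome) and GACCACCCA (a Gli site).
Gsk3a: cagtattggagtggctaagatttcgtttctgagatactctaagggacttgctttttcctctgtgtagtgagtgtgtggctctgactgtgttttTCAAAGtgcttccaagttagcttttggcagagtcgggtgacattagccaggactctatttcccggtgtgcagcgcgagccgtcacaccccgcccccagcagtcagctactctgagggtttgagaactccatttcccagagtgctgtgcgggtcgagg
Axin2: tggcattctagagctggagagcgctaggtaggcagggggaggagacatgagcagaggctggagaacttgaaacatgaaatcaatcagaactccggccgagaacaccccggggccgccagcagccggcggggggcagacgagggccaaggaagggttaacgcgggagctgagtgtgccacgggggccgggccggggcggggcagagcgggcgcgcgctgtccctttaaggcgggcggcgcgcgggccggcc
Ptch1: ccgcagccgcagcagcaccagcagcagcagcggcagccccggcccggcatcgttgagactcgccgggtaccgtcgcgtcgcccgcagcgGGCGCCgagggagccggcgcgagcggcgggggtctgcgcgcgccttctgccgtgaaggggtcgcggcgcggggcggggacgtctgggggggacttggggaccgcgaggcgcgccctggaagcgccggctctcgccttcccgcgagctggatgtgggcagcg
The Gsk3a promoter held the Tcf and Lef core, as its reverse complement TCAAAG beginning 157 bases before the start, and the Ptch1 promoter held GGCGCC beginning 161 bases before it. Axin2 held none of the 4 in this window. Of all 32851 promoters in the RefSeq table, 13.8% held CTTTGA, 9.59% GGCGCC, 0.167% the Smad palindrome and 0.225% the Gli site. RefSeq promoters were found for 65 of the 96 genes (79 promoters), of which 10.1% held CTTTGA and 22.8% GGCGCC, and 0 held either longer motif. For the 8412 promoters of genes named on the array the shares of CTTTGA and GGCGCC were 11.5% and 15.3%. The members' promoters had a median of 66.4% G and C, against 58.8% for genes named on the array, and GGCGCC is made of those letters alone. A match describes letters and shows no binding.

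The deposited values are intensities on a linear scale, already scaled so that the arrays had equal trimmed means (500.25 to 500.26). The signals of 19 controls for bacterial and yeast transcripts, absent from mouse RNA, put the background floor (their 90th percentile) at 100.5, 124.8 and 120.4 units for pools 1, 2 and 3. A probe set is called measured where its mean signal exceeded the mean floor, which held for 8327 of the 12422. The signals of different probe sets are not relative amounts of transcript, since each set binds with its own strength. All 14 neural retina markers were above the floor in every pool. Their summed signal was 91570 units in pool 1, 112200 in pool 2 and 106200 in pool 3. Lens markers, 11 of 11 measured, summed to 94910, 25460 and 203600 units. Blood markers (3 of 3 with a probe set) summed to 20540, 12670 and 10550 units and were highest in pool 1. Pigment cell markers (4 of 6) summed to 1434, 1381 and 2221 units, with Tyr and Tyrp1 not measured, endothelial markers (5 of 6) to 1500, 1658 and 2019, fibroblast markers (4 of 5) to 1563, 2000 and 1824, and skeletal muscle markers (2 of 5) to 348.3, 383.1 and 332.8. No marker was listed at 0. The ratio of 3′ to 5′ signal for Actb, a sign of RNA quality, was 1.10, 1.40 and 1.63, and that for Gapdh was 0.825, 0.904 and 0.750. Xist, the RNA of the inactive X chromosome, had 69.5 units in pool 1, a value below background, against 1384.4 in pool 2 and 1543.7 in pool 3. Y-linked Eif2s3y had 546.4, 428.8 and 247 units by a set that can bind related transcripts, and Uty and Kdm5d were not measured. Pool 1 thus differed from the others in Xist, blood RNA and the Actb ratio, and lens RNA differed between all pools. The part of these in any result below was not tested. In whole retina, fewer cells of a type and less RNA per cell cannot be told apart.

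Members were above background less often than the array as a whole, and the share varied by role. Of the 119 member probe sets 64 (53.8%), for 56 of 96 genes, were measured, against 67.0% of all gene probe sets. In every pool 50 (42.0%) lay above the floor, against 57.9% of all, and 35 (29.4%) lay above it in none, against 23.3%. The median of the members' mean signals was 136.8 units, against 234.4 for all gene probe sets. With the gene probe sets of the array divided by mean signal into 4 equal groups, the members numbered 40, 42, 26 and 11 from the dimmest group to the brightest. Genes above the floor in all pools were 6 of 7 Smads and 7 of 8 intracellular Wnt components, against 2 of 14 Wnt ligands, 2 of 14 BMP and GDF ligands and 2 of 8 TGF-beta and activin ligands. In the hedgehog pathway the ligands Shh, Ihh and Dhh were above the floor in all pools, as was the receptor Ptch1. Smo, Gli1, Gli2 and Gli3 were not. These differences between roles were not tested. The receptors lay between, with 6 of 10 Frizzled and Lrp genes and 6 of 11 BMP, activin and TGF-beta receptors. With the floor raised to the highest control on each array (209.1, 172.8 and 210.6 units), 30 of the 96 genes remained above it in every pool: 4 of 7 Smads, 6 of 8 intracellular Wnt components, 4 of 10 Frizzled and Lrp genes, 3 of 11 BMP, activin and TGF-beta receptors, 4 of 8 hedgehog genes (Ptch1 and all 3 ligands), the ligands Wnt1, Bmp4, Tgfb2 and Tgfb3, and Sfrp1, Sfrp2, Ltbp3, Bmp1 and Tgfb1i1. A signal under the floor shows that a transcript was not detectable by that probe set, not that it was absent.

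**Figure D1:**
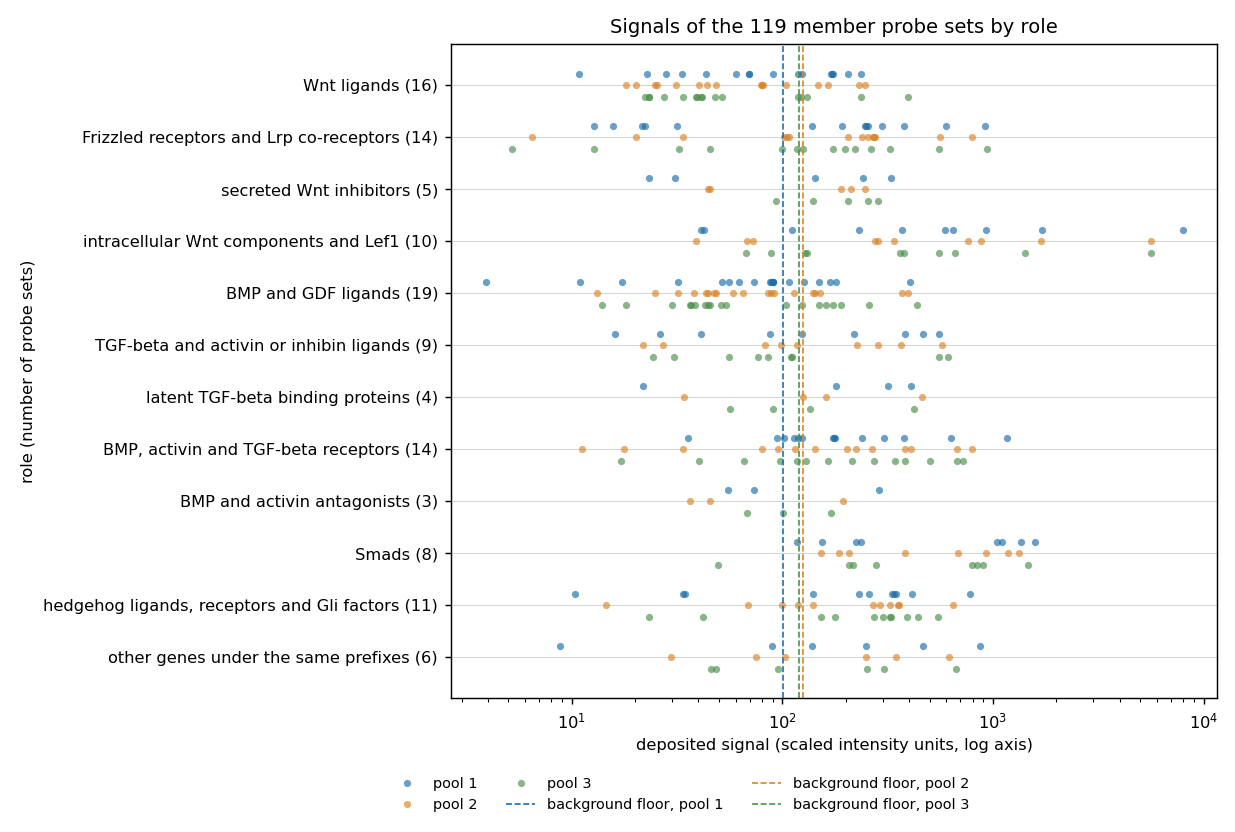
Deposited signal of each of the 119 member probe sets (x axis, scaled intensity units, log scale) by role (y axis, with the number of probe sets), 1 point for each pool, with dashed lines at the background floors of pools 1, 2 and 3 (100.5, 124.8 and 120.4 units). Most Wnt, BMP and GDF ligand points lie left of the floors, and most points of Smads and intracellular Wnt components lie right of them.

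Among the Wnt ligands, 3 of 14 genes were measured. Wnt1, which patterns the midbrain, had 236.6, 246.8 and 395.8 units in pools 1, 2 and 3. Wnt10a was at 173.1, 165.2 and 237.6, so pool 3 was highest for both. Wnt10b was at 118.5, 231.9 and 48.1 by a set of the r class, whose probes were chosen under relaxed rules, and its other probe sets were under the floor everywhere. The ligands Wnt2b, which marks the ciliary margin of the developing eye, Wnt3a, Wnt5a and Wnt5b were above the floor in pool 1 alone, at 204.3, 171, 124.2 and 171.8 units, with 22.4 to 104.5 in the others, and were not measured by the mean. The remaining unmeasured ligands were Wnt3, Wnt4, Wnt6, Wnt7a, Wnt7b, Wnt8a and Wnt11. Over all members, 11 probe sets (9.24%) were above the floor in pool 1 alone, 1 (0.840%) in pool 2 alone and 7 (5.88%) in pool 3 alone, against 5.03%, 1.96% and 2.91% of all gene probe sets. The floor of pool 1 was the lowest.

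Of the Wnt receptors 8 of 10 genes were measured, and Fzd6 and Lrp5 were not. Fzd4, the receptor for Norrin in retinal vessel growth, was at 915.8, 793.1 and 940.1 units, with pool 2 lowest by a small margin. Its other probe sets were under the floor in all pools. The co-receptor Lrp6 had 379.1, 557.7 and 555.3, lowest in pool 1, and a second Lrp6 set was under the floor in all pools. Fzd3, a receptor for axon guidance and planar polarity, was highest in pool 1 by both of its probe sets. The s set, which can bind related transcripts, gave 598.9, 270.4 and 222.5 units, and the other gave 295.9, 276.3 and 173.5. Fzd8 had 250.2, 237.9 and 325.7, Fzd7 had 192.3, 255.2 and 199, and Fzd9 had 139.1, 273.4 and 263.9. No pool was highest throughout: of 9 measured receptor probe sets, 4 were highest in pool 1, 3 in pool 2 and 2 in pool 3.

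The secreted Frizzled-related proteins, which bind Wnts outside the cell, were all above the floor in every pool. Sfrp1 was at 240.7, 211.7 and 253.8 units, Sfrp2 at 326.7, 247.7 and 285.5, and Sfrp4 at 143.7, 189.4 and 204.9. Their median SD between pools was 0.20 on the log2 scale, against 0.27 for all measured probe sets. The Lrp blockers Dkk1 and Dkk2 were not measured.

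All of the intracellular Wnt genes but Dvl3 were above the floor in every pool. Gsk3a had 7947.4, 5597.7 and 5613 units, higher in pool 1 than in the others by 0.51 and 0.50 on the log2 scale. Dvl1, an adaptor that Frizzled receptors recruit, was at 1700.2, 1697.6 and 1423.4. Axin1, the scaffold of the destruction complex, had 921.9, 878.4 and 660.4. These 3 were all highest in pool 1, though Dvl1 was above its pool 2 signal by only 0.002 on the log2 scale. Dvl2 gave 368.3, 274.9 and 378. The nuclear factor Lef1 was at 588.9, 759.9 and 554.8 by 1 set, while its g set, which can bind several transcripts of 1 family, was under the floor in all pools. The tumour suppressor Apc, a part of the destruction complex, had 647.7, 284.7 and 361, and the feedback gene Axin2 had 232.1, 337.5 and 131.1. Axin2 and Lef1 were highest in pool 2 and lowest in pool 3, while Apc was highest in pool 1.

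BMP and GDF ligands were near background, with 6 of 14 genes measured. Bmp4, which patterns the dorsal retina, was at 405.4, 369.1 and 437.9 units by an s set, and its r set was under the floor in all pools. Bmp5 had 126.3, 142.8 and 160.9. Gdf9, known from the oocyte, was at 90.1, 395.6 and 149.6, and Gdf5, a joint growth factor, at 149.6, 113.2 and 258.4. Each of these had 1 pool under the floor. Bmp6 and Bmp15 were measured through pools 1 and 2 only, and a second Bmp6 set was under the floor in all pools. Bmp2, Bmp7, Bmp8a, Bmp8b, Bmp10, Gdf3, Gdf10 and Gdf11 were not measured.

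The TGF-beta ligands Tgfb2 and Tgfb3 were above the floor in every pool. Tgfb2 had 464.7, 574.5 and 613.7 units, lowest in pool 1, and Tgfb3 had 555.8, 365.3 and 555.2, lowest in pool 2. A second Tgfb3 set was under the floor in all pools. Tgfb1 was not measured. Of the inhibin and activin subunits, Inhbc had 383.4, 283.4 and 76.8 and Inhba, which forms activin A, had 220, 226.8 and 109.9, both under the floor in pool 3. Inha, Inhbb and Inhbe were not measured. Latent binding proteins hold TGF-beta in the matrix: Ltbp3 was steady at 408.3, 462.7 and 421.2, whereas Ltbp4 had 318, 125.6 and 134.9. Ltbp2 had 179.9, 161.6 and 90.1, under the floor in pool 3, and Ltbp1 was not measured.

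Of the BMP, activin and TGF-beta receptors 7 of 11 genes were measured. Acvr2b, a type II activin receptor, had 1164, 792.8 and 723.8 units, highest in pool 1. Its relative Acvr2a was at 635, 677 and 676.5, the narrowest range of any measured member at 1.07-fold, and at 175.6, 202.8 and 273.8 by a second set. Acvrl1, a BMP9 receptor of endothelium, had 379.7, 382.8 and 503.5, highest in pool 3. Its r set gave 305.5, 409.1 and 383.7 and its g set 119.1, 33.8 and 214.4. By the strongest set of each gene, the summed signal of the endothelial markers was highest in pool 3 too, as were Kdr, Cldn5, Pecam1 and Flt1. Cdh5 had 113.2, 173.7 and 96.3, lowest in pool 3, and Tek was not measured. Any link of these markers to Acvrl1 was not tested. Acvr1b, a type I activin receptor, had 101.4, just above the floor of 100.5, then 224.5 and 342.7, with pool 3 highest. The type II BMP receptor Bmpr2 had 238.6, 266.1 and 129.9, and Tgfbr3 (betaglycan) had 174.3, 142.4 and 165.5. Bmpr1a had 178.2, 114.4 and 117.7, only the first of them above background, and Acvr1, Bmpr1b, Tgfbr1 and Tgfbr2 were not measured. Among antagonists, Nog, which binds BMPs, had 286.6, 193.8 and 170.2, while Chrd and Fst were not measured.

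The Smads were among the steadiest groups, their 7 measured probe sets having a median SD of 0.18 (log2). Smad4, the partner shared by all receptor-activated Smads, was at 1352.5, 1322.4 and 1471.6 units. Smad2, of the activin and TGF-beta branch, had 1044, 927.1 and 843.2. Smad1, of the BMP branch, was highest in pool 1 by both sets, at 1591, 1180.4 and 898.3 by the g set and 1104.5, 680.9 and 795.6 by the other. Smad5 had 235.6, 185.1 and 216.5. The inhibitory pair behaved unlike each other: Smad6 was level at 224.9, 207.7 and 206.8, while Smad7 had 154.6, 381.1 and 277. Smad3 was not measured, although it was above the floor in pools 1 and 2 (117.4, 153.1 and 49.6).

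In the hedgehog pathway Ptch1 was highest in pool 1 by both probe sets, at 781.2, 647.2 and 438.9 units and at 411.8, 270.8 and 300.8. Shh, which ganglion cells secrete, had 332.7, 357.3 and 388.9, and Ihh had 258, 291.4 and 327.4, so pool 1 was lowest for both. Dhh had 347.6, 326.1 and 324.3 by 1 set and 340.2, 356 and 549.8 by a set of the f class, which can bind related transcripts. The r set of Dhh was under the floor in all pools. Smo, the transducer that Ptch1 holds in check, was at 231.2, 119.3 and 177.7, with pool 2 under the floor. Gli2 had 139.8, 99.2 and 273.6, also under the floor in pool 2. Gli1 and Gli3 were not measured, each above the floor in 1 pool (139.2 in pool 2 and 152.4 in pool 3).

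The prefixes also took in 4 genes that are not ligands, receptors or transducers. Tgfb1i1, a focal adhesion protein also called Hic-5, had 865.9, 616.6 and 669.6 units. Bmp1, a procollagen protease, had 465.1, 347.8 and 252.6 by 1 set and 248.7, 249.9 and 302.8 by another, in which the order of pools 1 and 3 was turned. Bmp2k and Tgfbi were not measured.

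No measured member was called more variable between pools than probe sets of like signal. In limma's test of variability over all 8327 measured probe sets, 0 of 64 members passed at an adjusted p of 0.05, against 18 (0.216%) of all, and 4 (6.25%) had an unadjusted p under 0.05, against 5.34% of all. The 4 were Gdf9, Fzd3 (the s set), Inhbc and Acvr1b, with limma adjusted p of 0.74, 0.83, 0.83 and 0.84. With the ordinary fit the counts were again 0 and 4, while 6 of all measured probe sets passed. With no intensity trend they were 0 and 5, but 0 of all measured probe sets passed, so that fit tells nothing of the members. The members' median SD was 0.31 on the log2 scale and that of all measured probe sets 0.27. For the 50 members above the floor in every pool the median SD was 0.26, against 0.25 for the 7198 such probe sets, so the members' spread there was close to that of the array. Among members with a mean under 250 units the median SD was 0.43 (30 probe sets), against 0.36 for all in that band, and from 1000 units upward it was 0.22 (4 probe sets), against 0.21. A p that misses the threshold does not show that the pools were equal.

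**Figure D2:**
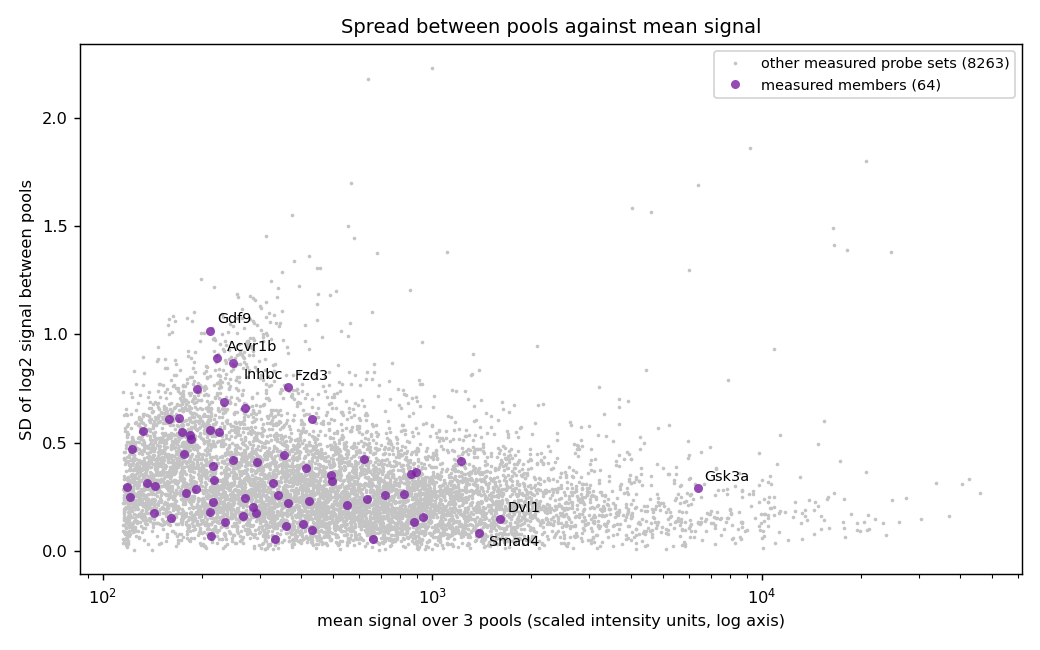
SD of log2 signal between the 3 pools (y axis) against mean signal (x axis, scaled intensity units, log scale) for 64 measured members (purple) and the other 8263 measured probe sets (grey). The members lie within the grey cloud, with Gdf9, Acvr1b, Inhbc and the s set of Fzd3 towards its upper edge and Acvr2a, Dhh and Smad6 low in it.

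Differences past 2-fold between any 2 pools were found for 13 measured members, each a different gene (20.3%, against 13.2% of all measured probe sets). The shares over all were not matched for signal: 30 of the 64 measured members had a mean under 250 units, against 2308 of all 8327. Spread was largest in that band. With 1 array on each side the counts past 2-fold have no p. Pool 1 was past 2-fold higher than pool 2 for 4 (Apc, Fzd1, Fzd3 and Ltbp4, 6.25%, against 2.73% of all) and lower for 3 (Acvr1b, Gdf9 and Smad7, 4.69% against 3.52%). Against pool 3, pool 1 was higher for 5 (Fzd1, Fzd2, Fzd3, Inhbc and Ltbp4, 7.81% against 3.11%) and lower for Acvr1b alone (1.56% against 3.81%). Pool 2 was higher than pool 3 for 4 (Axin2, Bmpr2, Gdf9 and Inhbc, 6.25% against 2.73%) and lower for Gdf5 and Gli2 (3.12% against 2.38%). These are counts of 1 to 5, and the genes came from most roles.

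For 7 of the 13 all pools were above the floor. Acvr1b ranged 3.38-fold, the s set of Fzd3 2.69-fold, Axin2 2.57-fold, Ltbp4 2.53-fold, Smad7 2.47-fold, Apc 2.28-fold and Bmpr2 2.05-fold. Their lowest signals were often close to background: 101.4 units for Acvr1b against a floor of 100.5, 125.6 for Ltbp4 against 124.8, and 129.9 for Bmpr2 and 131.1 for Axin2 against 120.4. All 4 were under the highest control of their array, so these folds are little firmer than lower bounds. The lowest signal of Smad7, 154.6 units in pool 1, was also under the highest control there (209.1). For the other 6, at least 1 pool was under its floor and the range is a lower bound: at least 3.94-fold for Gdf9, 3.19-fold for Inhbc, 2.19-fold for Gli2, 2.11-fold for Fzd1, 2.07-fold for Gdf5 and 2.04-fold for Fzd2. Fzd1 was at 254.2 units in pool 1 and under the floor in the others (105.5 and 116.9), and Fzd2 had 245.8, 205 and 99.7. The second set of Fzd3 ranged 1.71-fold in the same order. With the floor at the highest control the counts past 2-fold were 2, 1 and 0 for pools 1 and 2, 1 and 3, and 2 and 3, against 3.86%, 3.22% and 3.16% of all measured probe sets. With the floor at the median control, which left 100 members measured, they were 14, 24 and 25, against 12.4%, 15.4% and 12.3% of all.

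**Figure D3:**
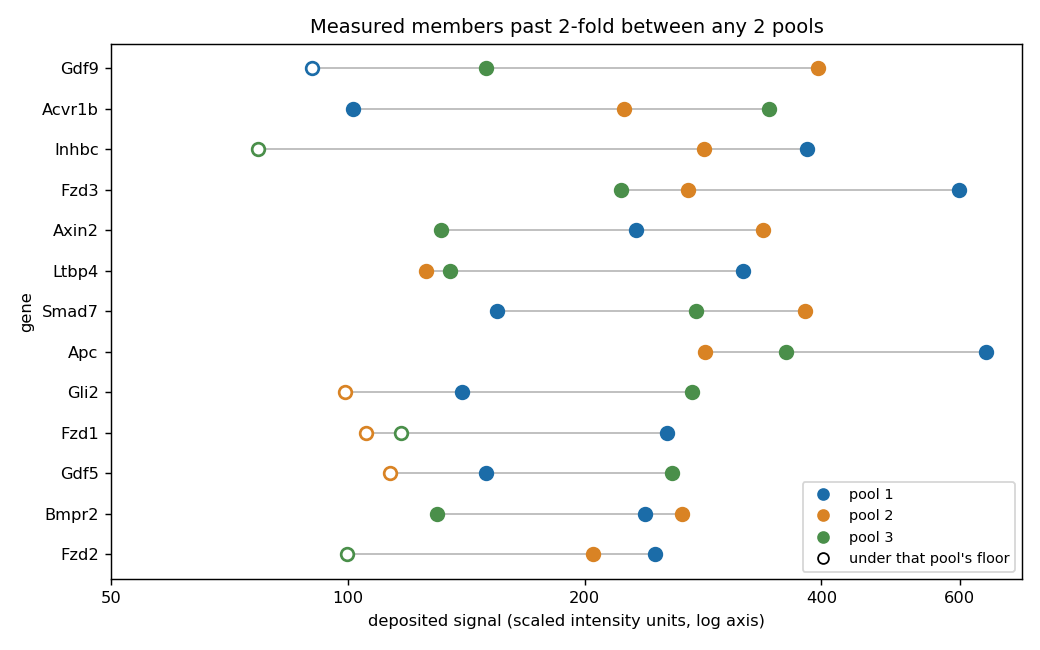
Deposited signal (x axis, scaled intensity units, log scale) in each pool for the 13 measured members past 2-fold between any 2 pools (y axis, for Fzd3 its s set), ordered by range, with open circles where a signal was under that pool's floor. Pool 1 is the highest point for Fzd3, Apc, Ltbp4, Inhbc, Fzd1 and Fzd2 and the lowest for Gdf9, Acvr1b and Smad7.

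Pool 1 was most often the highest for these genes. Of the 64 measured members, 30 (46.9%) were highest in pool 1, against 34.0% of all measured probe sets. No margin was required, so near ties count: Dvl1 had 1700.2 units in pool 1 and 1697.6 in pool 2, and Tgfb3 had 555.8 in pool 1 and 555.2 in pool 3. Pool 2 was highest for 13 (20.3%, against 33.8%) and pool 3 for 21 (32.8%, against 32.2%). Over the 50 members above the floor in all pools the numbers were 22 (44.0%), 10 and 18 (36.0%), against 33.6%, 34.3% and 32.0% of the 7198. The genes highest in pool 1 included 5 of 7 measured Smad probe sets (both of Smad1, Smad2, Smad5 and Smad6), 4 of 7 intracellular Wnt sets (Gsk3a, Dvl1, Axin1 and Apc), both sets of Ptch1 and both of Fzd3. Pool 1 also had the highest blood marker sum (20540 units), the lowest retinal marker sum (91570) and the lowest Actb ratio (1.10), though not the lowest Gapdh ratio. By their strongest sets, the retinal markers Crx, Slc6a9 and Thy1 were highest in pool 1, and the rest of the 14 were lowest there. The part of these measures in the orders above was not tested. The order of the lens markers, highest in pool 3 and lowest in pool 2, was found for 7 of the 50 (14.0%, against 15.4% of all), and that of the summed blood markers (and of Hba-a1 and Hbb-b2, but not Alas2), from pool 1 down to pool 3, for 12 (24.0%, against 15.9%). Whether these shares differ beyond chance was not tested.

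**Figure D4:**
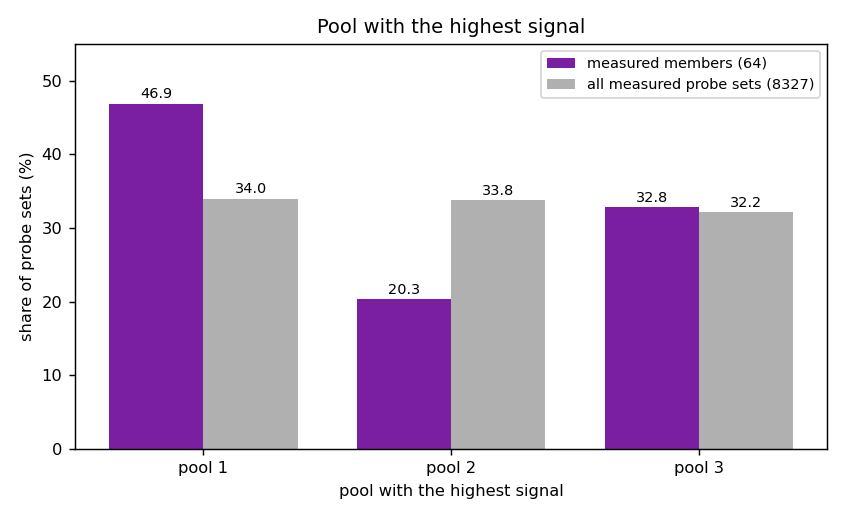
Share of probe sets (y axis, percent, from 0) whose highest signal was in pool 1, 2 or 3 (x axis), for the 64 measured members (purple) and all 8327 measured probe sets (grey). The members' bar is the taller one for pool 1 (46.9 against 34.0) and the shorter one for pool 2 (20.3 against 33.8).

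The median log2 difference over the measured members was 0.11 for pool 1 minus pool 2, against -0.01 for all, with 39 of 64 higher in pool 1 (60.9%, against 48.8%). For pool 1 minus pool 3 it was 0.08, against -0.01, with 34 higher (53.1%, against 49.0%), and for pool 2 minus pool 3 it was -0.001, against 0.006, with 32 higher, against 50.5% of all. Over the 50 members above the floor in every pool the medians were 0.07, -0.02 and -0.11, so the sign for pool 1 minus pool 3 was turned. By role, the median for pool 1 minus pool 3 was -0.46 for the 3 measured Wnt ligand sets, 0.48 for the 7 intracellular Wnt sets and 0.12 for the 7 Smad sets. It was 0.75 for Nog (1 set), 0.58 for latent binding proteins (3), 0.44 for TGF-beta and activin ligands (4) and 0.37 for the genes of other function (3). It was -0.23 for BMP and GDF ligands, -0.21 for their receptors and those of activin and TGF-beta, -0.08 for secreted Wnt inhibitors, -0.06 for hedgehog genes and -0.04 for Frizzled and Lrp genes.

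A second probe set of the same gene often ordered the pools differently. Of 18 genes with more than 1 probe set, 7 had at least 2 that were measured. The highest pool was the same for 3 of these (Fzd3, Ptch1 and Smad1), in each case pool 1. It differed for Acvr2a, Acvrl1, Bmp1 and Dhh. The lowest pool was the same for both sets of Acvr2a (pool 1) and of Fzd3 (pool 3).

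Other genes of these pathways, from lists that the symbol rule does not take, were mostly well above background. In limma's test, adjusted over all probe sets, 0 of their 48 measured probe sets passed, and 4 had an unadjusted p under 0.05. Of all measured probe sets 0.216% passed and 5.34% had an unadjusted p under 0.05. Of 20 further Wnt pathway genes with a probe set 17 were measured, all above the floor in every pool by their strongest set. Ctnnb1 (beta-catenin) was level at 4594.8, 4848.9 and 4288.2 units, and the casein kinase Csnk1a1, which primes beta-catenin for Gsk3, had 2964, 3107.5 and 2488 by 1 set and 2015.6, 2233.9 and 2646.4 by the other. Ccnd1, a cell cycle gene and Wnt target, had 1210, 641.7 and 819.3, highest in pool 1 by both of its sets. The sets of the repressor Tcf7l1 disagreed, at 201.1, 599.8 and 172.8 and at 542.6, 87.4 and 141.7. Probe sets stood for 16 further BMP and TGF-beta genes, of which 13 were measured. Among the Id genes, which BMP signals raise, Id2 had 496.6, 1103.9 and 603.3, Id3 had 634.6, 871.9 and 853.2 and Id4 had 650.5, 935.6 and 947.9, each lowest in pool 1, whereas Id1 had 548.6, 535.8 and 390.6. Probe sets stood for 6 further hedgehog genes, of which 5 were measured, with the co-receptor Gas1 at 1095.9, 1098.1 and 908.7 and Prkaca, the kinase that restrains Gli factors, at 1368, 1433.3 and 1482.1.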

How the data were processed

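RNA of 3 retinal pools was measured on 3 arrays. The table deposited by the authors gives each probe set 1 intensity for each array, on a linear scale. The software was not given in the sources used here. Trimmed means (2% at each end) were equal, so no scaling was added. Of 12488 probe sets, 66 controls were set aside and 1 blank row dropped. The platform annotation gave 1 symbol to 10833 of the rest, several to 396 and none to 1193. No member's symbol changed when checked through gene identifiers (GRCm38.p6), and no probe set with the single symbol Gsk3b was analysed here. The floor was the 90th percentile of 19 controls. Signals under it were set to it before log2.

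limma 3.58.1 (R 4.3.3) fitted an intercept to all 8327 measured probe sets, then an F distribution to their variances (robust, with an intensity trend). Benjamini-Hochberg adjustment was used with a threshold of 0.05. A run on simulated normal noise checked the code only. It required calls at the largest simulated folds, so it does not show the power of the test at folds like the members'. Python 3.11.15, pandas 2.3.3, numpy 2.4.6, scipy 1.17.1 and matplotlib 3.10.9 did the rest. The symbol rule for members uses no measured value, but the members and lists were chosen with earlier results of these data known. By rule, values in all pools were given at least for members called or past 2-fold, the 3 with the strongest signal in each role, steady members and genes with several measured probe sets. The number of arrays limits the precision.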

Additional observations from a re-analysis of the deposited data

How the results depend on the processing

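No measured member passed limma's test of variability under any of the 12 alternatives, with adjusted p of 0.42 to 1 over these and the main setting for Gdf9, Fzd3, Inhbc and Acvr1b. Of all measured probe sets, these alternatives called from 0 (no intensity trend) to 52 (no filter), and the main setting 18. Low signals limit these data: the number of measured member probe sets, 64, became 100 with the floor at the median control. Counts past 2-fold for pools 1 and 2, 1 and 3, and 2 and 3 were 7, 6 and 6 of 64 (6.24%, 6.92% and 5.1% of all measured). They became 14, 24 and 25 with the floor at the median control (12.4%, 15.4% and 12.3% of all measured), and 2, 1 and 0 at the highest control (3.86%, 3.22% and 3.16%). With log2 of signal plus 100 in place of a floor, the first and last were 1 and 3 (3.30% and 3.39% of all), and among probe sets above the floor on all arrays, the last 2 were 3 and 2 (4.42% and 3.64%); the cause was not tested. Without a filter on low signals the median log2 difference of pool 1 minus pool 3 was -0.26, which is the difference between the floors of these pools. The number highest in pool 1 (an alternative added after seeing the data) was 21 of 47 with the floor at the highest control (34.4% of all), 43 of 100 at the median control (34.0%) and 34 of 119 without a filter (25.2%). Leaving out 1 pool, quantile normalization and 1 probe set per gene moved none of these counts of members by over 1.5 times. The number called of all measured probe sets did move, from 18 to 40, 10 and 4 without pools 1, 2 and 3. No paired analysis was possible because there is 1 group and the labels give no replicate numbers.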
